A study of Mus musculus with 115 samples.

Results

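The polyamine genes described here are the 8 autosomal genes Odc1, Amd1, Srm, Azin1, Oaz1, Oaz2, Smox and Paox, taken by name and matched by Ensembl identifier among the 45699 genes of a prostate RNA-seq table. All 8 were found, and all were above 0 in every library. The libraries came from (TRAMP x WSB/EiJ) F2 male mice of 1 group, all positive for the TRAMP transgene, which places the oncogenic SV40 T antigen under a short probasin promoter that answers to androgen in prostate epithelium. The mice were F2 offspring of C57BL/6J TRAMP and the wild-derived strain WSB/EiJ, followed to a planned endpoint or an earlier humane one. Each library was taken as bulk tissue of 1 prostate, for small prostates of the ventral lobe. No library of a mouse without the transgene was analysed here. The values are TPM, a share of transcripts per unit of length that is scaled to a fixed total in each library and carries no depth, so the counting error of each value is unknown.

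Polyamines are small positively charged molecules that bind nucleic acids and are needed for growth and translation, and the prostate is known as an organ that makes and secretes large amounts of them. Ornithine decarboxylase (Odc1) makes putrescine, S-adenosylmethionine decarboxylase (Amd1) makes the donor of the aminopropyl group, and spermidine synthase (Srm) joins that group to putrescine. Antizymes (Oaz1, Oaz2) bind ornithine decarboxylase and send it to the proteasome, and the antizyme inhibitor (Azin1) frees it by binding antizyme in its place. Spermine oxidase (Smox) turns spermine back into spermidine, and Paox oxidises acetylated polyamines. The genes were set against 3 others. Mki67 encodes the Ki-67 protein of dividing cells, Tgm4 the secreted transglutaminase of the prostate, and Sbp the spermine-binding protein, a secreted androgen-dependent protein of the rodent prostate.

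Antizyme is made only when the ribosome slips forward by a single base at a stop codon near the start of the message, a step that polyamines promote, so its transcript level is not its protein level. The sites are shown because they are the feature that both antizyme genes share. They were read from GENCODE M21 transcript models of the genes, with the last codon before the slip and the stop codon in capitals, 36 bases each, of which 33 are identical.
Oaz1: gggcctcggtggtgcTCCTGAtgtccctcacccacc
Oaz2: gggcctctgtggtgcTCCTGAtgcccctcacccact

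Odc1 and Amd1 encode the decarboxylases that feed polyamine synthesis and were correlated in TPM in both sets of libraries described below. The 250 bases before their RefSeq start sites are shown for that reason, from the RefSeq promoter table of GRCm38.p6, with the GC box letters GGGCGG in capitals on either strand. Odc1 lies on chromosome 12 from 17544794 to 17551505 on the plus strand, and its window, chr12:17544623-17544872, held 4 GC boxes. RefSeq places the start of Odc1 downstream of the GENCODE start given here, so the last part of that window lies within the gene by the latter. Amd1 lies on chromosome 10 from 40287458 to 40302186 on the minus strand, and its window, chr10:40302189-40302438, held 1.
Odc1: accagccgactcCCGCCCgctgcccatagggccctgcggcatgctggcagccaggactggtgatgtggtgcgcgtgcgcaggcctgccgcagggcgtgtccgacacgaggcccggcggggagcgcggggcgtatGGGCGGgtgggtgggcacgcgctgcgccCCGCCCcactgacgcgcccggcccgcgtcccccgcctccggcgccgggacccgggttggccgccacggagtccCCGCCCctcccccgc
Amd1: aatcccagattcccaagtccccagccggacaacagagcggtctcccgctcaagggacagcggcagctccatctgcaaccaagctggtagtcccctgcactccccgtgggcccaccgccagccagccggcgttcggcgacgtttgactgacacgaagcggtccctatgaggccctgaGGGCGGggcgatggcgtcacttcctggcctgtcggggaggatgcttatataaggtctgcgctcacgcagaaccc
The GC box was in 32.7% of the 32851 promoter windows of the table, so it does not set these windows apart. The E-box letters CACGTG, in 6.02% of windows, the CCAAT letters, in 33.8%, and the letters TATAAA, in 12.4%, were in neither of these windows on either strand. Only exact letters were counted, so the near form tatataag toward the end of the Amd1 window was not. The table held 6 of the 8 members, without Srm and Azin1.

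The libraries separated along the first principal component of the 14623 genes averaging 1 TPM or more into a larger set of 79 and a smaller set of 36, and into the same sets when the members, the comparators and the other polyamine genes were left out. The sets were found in the data and are not groups of the study. Correlations were therefore made within each set, and the sets were not tested against each other. The prostate luminal markers were present in the series, with all 10 at a median of 1 TPM or more, and the smaller set held libraries in which they were low, their summed level there ranging from 45.4 to 2510 TPM. The summed neuroendocrine markers ranged from 51.7 to 986 TPM in the smaller set and from 1.56 to 73.96 TPM in the larger. In bulk tissue, fewer cells of a type and less RNA per cell cannot be told apart. The 20 largest genes of the table held a median of 66.3% of a library's TPM, from 48.9% to 81.8%, and every other value falls as their share grows.

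Oaz1 was the highest member in every library, and Paox had the lowest median over all libraries, though in the larger set Smox did (7.76 TPM against 10.29 for Paox). Oaz1 (chromosome 10, 80826656 to 80829290) had a median of 263.1 TPM over all libraries, with 113.6 the lowest and 472.5 the highest.

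Below it stood a band of synthesis and regulator genes whose levels crossed. Amd1 had a median of 46.9 TPM, from 10.8 to 182.4. Azin1 (chromosome 15, 38487427 to 38519266) had a median of 40.3 TPM, from 17.2 to 107.9, and Odc1 a median of 33.9 TPM, from 11.2 to 110.8. Amd1 was above Azin1 in 68 libraries and Odc1 above Amd1 in 38, so neither order was clear. Odc1 was above Amd1 in 4 of the 79 libraries of the larger set and in 34 of the 36 of the smaller, a difference that was not tested. Oaz2 (chromosome 9, 65668001 to 65690300) had a median of 27.3 TPM, from 10.01 to 55.9, and was below Azin1 in 97.4% of libraries.

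The lowest band held Srm and both oxidases. Srm (chromosome 4, 148591503 to 148594993) had a median of 14.2 TPM, from 4.42 to 25.6, and stood below Odc1 in every library. Smox (chromosome 2, 131491496 to 131525922) had a median of 7.47 TPM, from 1.46 to 95.6. Paox (chromosome 7, 140115799 to 140137224) had a median of 6.17 TPM, from 0.23 to 43.75, and was below Smox in 62 libraries, 26 of the larger set and all 36 of the smaller. With an order counted as clear when 1 gene was higher in at least 95% of libraries, 19 of the 28 pairs of members had a clear order and 9 did not.

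**Figure D1:**
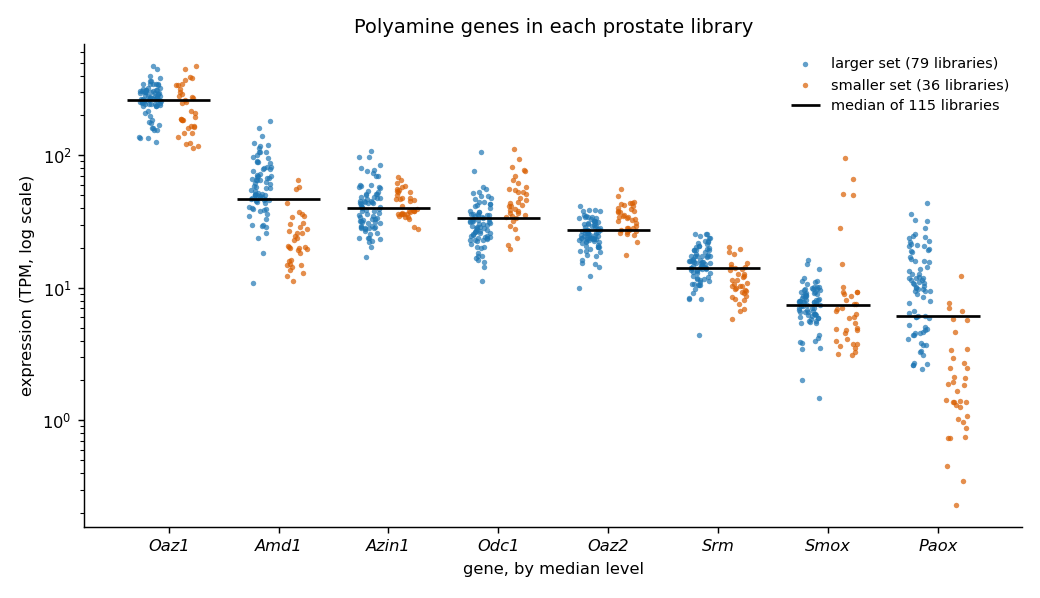
TPM of each polyamine gene in each library (log axis), 1 point per library, blue for the larger set of 79 and orange for the smaller set of 36, with the median of all libraries as a black line. Oaz1 sits above every other member, and 5 libraries stand high in Smox, the lowest of them at 28.1 TPM.

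By the ratio used here, most members varied less than the median gene. The ratio of the 90th to the 10th percentile over all libraries was 2.003 for Oaz2, 2.24 for Oaz1, 2.30 for Azin1, 2.31 for Srm and 2.77 for Odc1, against a median of 4.27 over the 14623 genes. Smox had a ratio of 2.91 and Amd1 of 5.20. Paox had the widest ratio, 15.97, above that of 79.4% of genes, so 6 of the 8 members were under the median of all genes.

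Libraries at the top differed by member. Smox stood at 95.6, 66.2, 50.8, 49.9 and 28.1 TPM in the libraries W1050, W1118, W1790, W1915 and W370, all of the smaller set, and at 16.1 TPM or less in every other. Those 5 libraries had Paox at 5.70, 6.64, 12.37, 7.0 and 2.07 TPM in the same order. Their summed prostate luminal markers were 1431, 1177, 1161, 762.4 and 454.2 TPM, where the median of the smaller set was 88.9. Of the same 5, all but W370 were also above the set's medians in stroma markers (573.1 TPM or more, against 264.3) and immune markers (172.1 TPM or more) and below it in neuroendocrine markers (91.1 TPM or less, against 315.5). The library W1154 had the lowest level of all libraries in Odc1, Srm, Amd1 and Tgm4.

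Ratios between members do not depend on how the total of a library is scaled, and are given as descriptions with no test. The levels of Mki67 and Tgm4 they are set against were in TPM and do depend on it. The r of the ratios with these genes was not repeated under the rescalings. The ratio of Odc1 to Oaz1, the enzyme's transcript against that of its antizyme, had a median of 0.120, from 0.0616 to 0.448. In the smaller set it went with Mki67 at r = 0.73 (rho = 0.70, and r = 0.64 when the 2 libraries farthest from its median were left out). The ratio of Azin1 to Oaz1, median 0.161, went with Mki67 there at r = 0.64 (rho = 0.72, and r = 0.76 with the same omission). The larger set gave an r with Mki67 of 0.06 for Odc1 to Oaz1 and 0.32 for Azin1 to Oaz1.

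Against Tgm4, both ratios had r = -0.43 in the larger set. The ratio of Srm to Amd1 had a median of 0.333 and passed 1 in 1 library. Smox to Paox had a median of 1.25, from 0.225 to 17.4.

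The first question put to the data was whether the polyamine genes follow cell division, read from Mki67. In the larger set Mki67 had a median of 4.23 TPM, from 0.39 to 25.7. Each member was fitted on Mki67 by limma over all expressed genes on the log2(TPM + 1) scale, so a slope is the log2 difference in a gene per log2 unit of Mki67, and a gene was called at an adjusted p under 0.05. In TPM, 7 of the 8 members were called, all positive, but so were 74.3% of all 14621 genes tested (72.9% positive and 1.42% negative), so the count says nothing particular about polyamine genes. The median slope of all genes was 0.18 and that of the members 0.23. The share held by the 20 largest genes moved with Mki67 here at r = -0.63.

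Smox, Azin1 and Paox stayed positive when that share was scaled out. Smox was 1.46, 2.01 and 5.95 TPM in the 3 libraries lowest in Mki67 and 10.7, 8.17 and 9.31 TPM in the 3 highest. Its slope was 0.31 ± 0.04 (SE, n = 79; limma adjusted p = 4.9e-11), with r = 0.68 and rho = 0.67 (two-sided permutation p = 1e-05 for each, the smallest that 100000 permutations can give) and r = 0.69 without the 2 farthest libraries. The slope was 0.18 under median-of-ratios scaling, where 43.7% of genes were called and the median slope of all genes was -0.01. It passed the threshold under all 12 alternatives tried, with adjusted p from 4.5e-12 to 0.0012. Immune markers went with Mki67 at r = 0.56 and with Smox at 0.67 in the larger set, and stroma markers at 0.35 and 0.54, and with the immune markers as a covariate the slope of Smox was 0.20 (adjusted p = 3e-05).

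Azin1 was 25.6, 20.4 and 23.9 TPM in the 3 libraries lowest in Mki67 and 96.5, 43.5 and 107.9 TPM in the 3 highest. Its slope was 0.33 ± 0.05 (SE; limma adjusted p = 3.3e-09), with r = 0.62 and rho = 0.60 (permutation p = 1e-05 each), and 0.10 under median-of-ratios scaling (adjusted p = 0.026). Paox had a slope of 0.45 ± 0.09 (SE; limma adjusted p = 4.6e-06, r = 0.50, rho = 0.49, permutation p = 2e-05 each), and 0.26 under that scaling (adjusted p = 0.021). Azin1 and Paox each passed under 11 of 12 alternatives, and lost the call with the first principal component of the set as a covariate (adjusted p = 0.46 and 0.15). Mki67 lies on chromosome 7 (135689784 to 135716361), as Paox does, and any part of shared inheritance in their correlation in this F2 cross was not tested.

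Odc1, Amd1 and Oaz1, by contrast, had slopes near the median of all genes. In TPM their slopes were 0.23 ± 0.05, 0.24 ± 0.07 and 0.21 ± 0.04 (SE), and under median-of-ratios scaling they were -0.0012, -0.027 and 0.0048, with limma adjusted p of 0.99, 0.77 and 0.93. Oaz2 turned from 0.15 ± 0.04 in TPM to -0.08 ± 0.02 under that scaling (adjusted p = 0.0019). Srm was the only member not called in TPM, at -0.04 ± 0.05 (SE; limma adjusted p = 0.47), and its slope was above that of only 5.27% of genes. It was -0.25 ± 0.05 under median-of-ratios scaling (adjusted p = 5.5e-05) and -0.17 ± 0.04 with TPM rescaled without the 20 largest genes (adjusted p = 0.00033). Against the other genes of a library, Srm was thus lower where Mki67 was higher, on both of these scales.

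**Figure D2:**
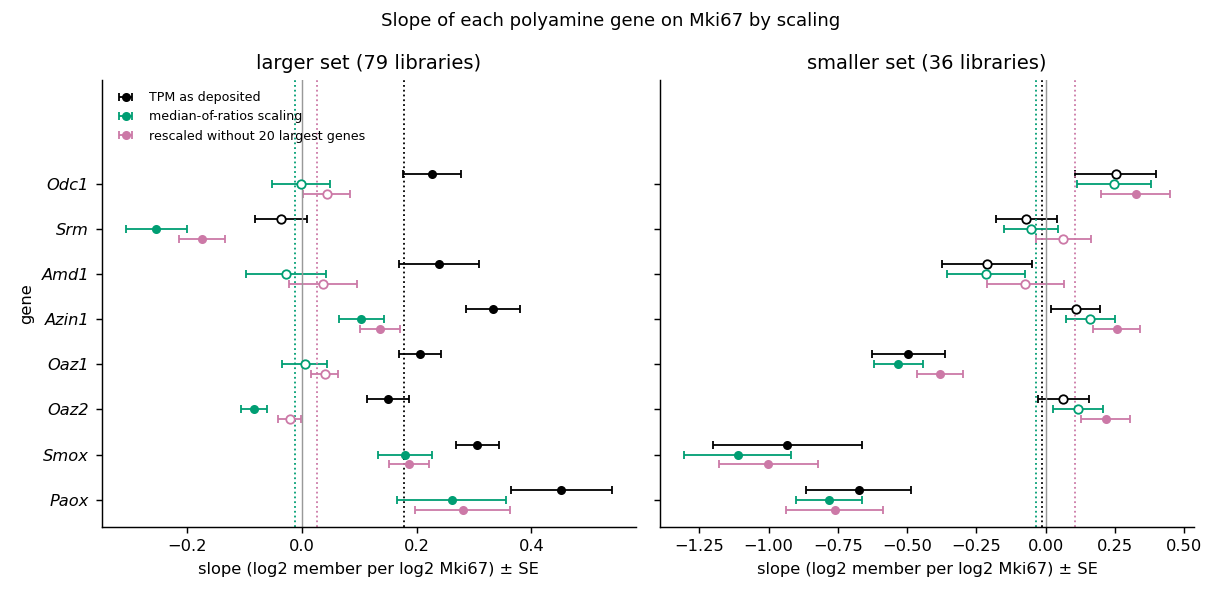
Slope on Mki67 (log2 units per log2 unit) ± SE for each polyamine gene in the larger (left) and smaller (right) set, for TPM (black) and for each rescaling (green, pink), with filled points at a limma adjusted p under 0.05 and dotted lines at the median slope of all genes. In the larger set the dotted line for TPM sits at 0.18, and only Smox, Azin1 and Paox are filled and positive in all 3 colours.

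In the smaller set, where Mki67 had a median of 83.5 TPM, from 20 to 144.5, the sign was the other way for 3 members. Oaz1, Smox and Paox were called and negative, and 44.9% of genes were called, 21.6% negative. Oaz1 was 263.1, 216.4 and 249.0 TPM in the 3 libraries lowest in Mki67 and 162.2, 166.0 and 196.1 TPM in the 3 highest. Its slope was -0.50 ± 0.13 (SE, n = 36; limma adjusted p = 0.0029), with r = -0.54 (permutation p = 0.00072), rho = -0.65 (permutation p = 4e-05) and r = -0.66 without the 2 farthest libraries.

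Smox was 28.1, 15.1 and 5.40 TPM at the low end of Mki67 and 6.37, 3.78 and 3.77 TPM at the high end. The slope of Smox was -0.93 ± 0.27 (SE; limma adjusted p = 0.0055; r = -0.50, rho = -0.61, permutation p = 0.0027 and 0.00011). That of Paox was -0.68 ± 0.19 (SE; limma adjusted p = 0.0041; r = -0.51, rho = -0.56, permutation p = 0.0014 and 0.0005). Without the 5 libraries highest in Smox, the slopes were -0.56 for Oaz1, -0.53 for Smox and -0.78 for Paox, all called (limma adjusted p = 0.0027, 0.0020 and 0.00030). Odc1, Srm, Amd1, Azin1 and Oaz2 were not called, with r from -0.21 to 0.28. Without the 20 largest genes, Odc1 (slope 0.32), Azin1 (0.26) and Oaz2 (0.22) were called and positive (limma adjusted p = 0.023, 0.011 and 0.036), where 60.7% of genes were called. Srm was called and negative without the 2 farthest libraries (limma adjusted p = 0.0067), and Srm and Amd1 were without the 5 highest in Smox (adjusted p = 0.048 and 0.039).

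**Figure D3:**
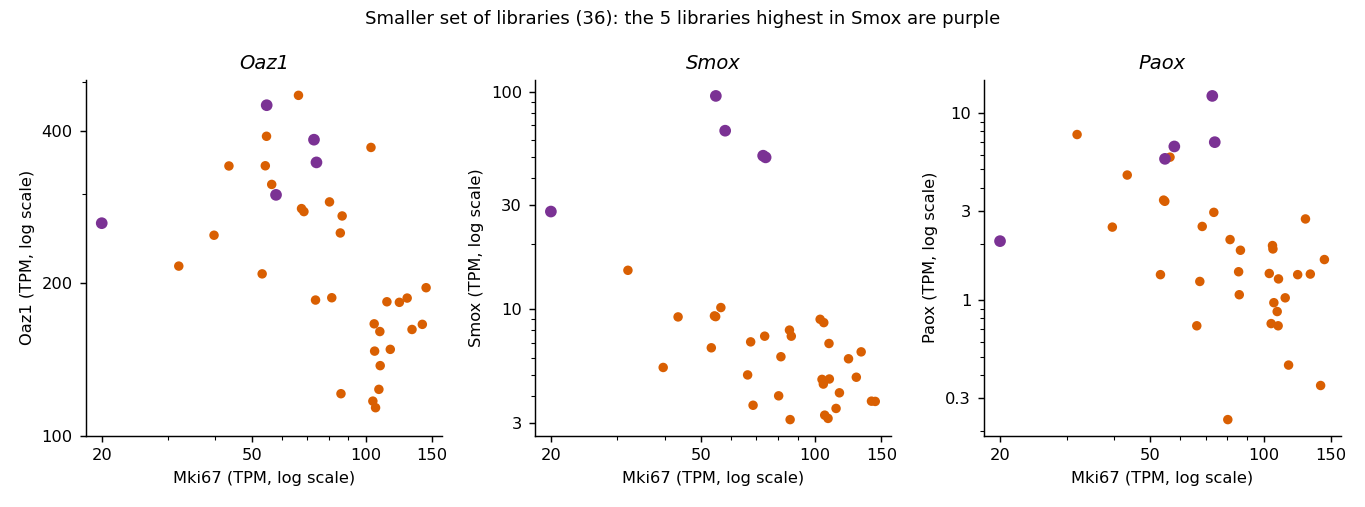
Oaz1, Smox and Paox against Mki67 in the 36 libraries of the smaller set (TPM, log axes), 1 point per library, with the 5 libraries highest in Smox in purple. Each gene is lower toward high Mki67, and the 5 purple points lie at 74.05 TPM of Mki67 or less.

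Markers of other cells moved with these genes. Within the smaller set, the summed prostate luminal list went with Oaz1 at r = 0.61, Smox at 0.74, Paox at 0.85 and Mki67 at -0.69. The 12 stroma markers, summing to between 14.9 and 2010 TPM, went with Paox at r = 0.80, and the 12 immune markers, of which 7 had a median of 1 TPM or more and which summed to between 18.2 and 669 TPM, at 0.77. With the stroma, the immune or the luminal markers as a covariate, 0 of the 3 genes passed the limma test, with adjusted p from 0.07 to 0.94, while 29.6%, 28.2% and 29.4% of all genes did. Mki67 itself went with the 9 other proliferation genes at r = 0.42 in the smaller set and 0.97 in the larger. In the 36 libraries of the smaller set, the sum of those 9 genes went with Oaz1 at r = 0.34, with Smox at 0.05, with Paox at -0.17 and with Odc1 at 0.71. The r of Oaz1 with these genes thus had the other sign than its r with Mki67.

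The next question was whether the synthesis genes go with the secreted product Tgm4. Srm did in the larger set, and it was the only member called there. The summed prostate luminal markers did not go the same way, with r = -0.35 with Tgm4 and -0.01 with Srm. Tgm4 ranged there from 0.64 to 16895 TPM with a median of 7050. Srm was 4.42, 17.8 and 13.6 TPM in the 3 libraries lowest in Tgm4 and 24.7, 25.6 and 23.9 TPM in the 3 highest. The slope was 0.071 ± 0.015 (SE, n = 79; limma adjusted p = 5.8e-05), with r = 0.49 (permutation p = 4e-05), rho = 0.65 (permutation p = 1e-05) and r = 0.42 without the 2 farthest libraries. Among all genes 38.8% were called, 12.2% positive, and the slope of Srm was above that of 94.2% of genes.

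The call for Srm held under all 12 alternatives, with slopes from 0.066 to 0.091 on the log2 scales and adjusted p from 3.4e-09 to 0.00046. These include both rescalings and the stroma, immune, seminal vesicle, luminal and neuroendocrine markers as covariates. The larger set was also divided at Tgm4 into 55 and 24 libraries, a division chosen after the data were seen, which the rule for separate parts did not pass (Ashman D = 2.0), so its values are a description of where the points lie. In the 55 libraries with Tgm4 of 3314 TPM or more, the slope of Srm was 0.38 ± 0.06 (SE; limma adjusted p = 6.7e-07; r = 0.69, rho = 0.66, permutation p = 1e-05 each; 32% of genes called, 10.3% positive). In the 24 with less, it was -0.002 ± 0.032 (SE; limma adjusted p = 0.9996; r = -0.01, permutation p = 0.96; 0.507% of genes called, 0.0548% negative). The difference between these slopes was not tested.

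**Figure D4:**
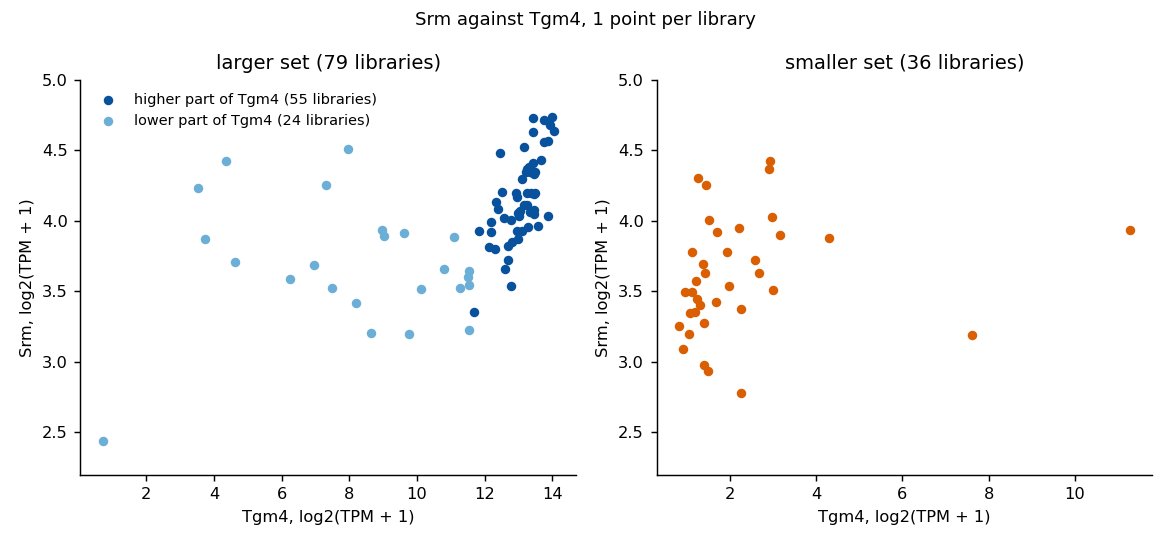
Srm against Tgm4, both as log2(TPM + 1), 1 point per library, in the larger set (left, with the 55 libraries high in Tgm4 in dark blue and the other 24 in light blue, a division that did not pass the rule for separate parts) and the smaller set (right). Srm climbs with Tgm4 among the dark points (r = 0.69) and not among the light ones (r = -0.01).

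The other 7 members were not called against Tgm4 in the larger set, with r from -0.26 for Odc1 to 0.16 for Oaz1. Odc1 was nearest the threshold, at -0.048 ± 0.020 (SE; limma adjusted p = 0.051), and was called and negative under 3 of 12 alternatives. Oaz1 was called and positive under 4 of 12, both rescalings among them (adjusted p = 0.0042 and 0.00095). Azin1 was called and negative under 4 of 12, again with both rescalings (adjusted p = 0.0088 and 0.029).

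Tgm4 was low in most libraries of the smaller set, at a median of 1.83 TPM from 0.77 to 2469. Of the 8 members, 0 were called by limma and 0 had an unadjusted p under 0.05, where 2.7% of genes were called, 2.18% positive. The r of Srm was 0.18 (permutation p = 0.29) and its rho 0.40 (permutation p = 0.015). By rho, Smox was at 0.50, Oaz1 at 0.46 and Paox at 0.44 (permutation p = 0.0022, 0.0054 and 0.0068), and under ranks in limma none of the members was called.

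Sbp split the libraries again within both sets, so it was fitted in 4 parts. They held 26 libraries from 5.37 to 92090 TPM and 53 at 2.32 TPM or less in the larger set, and 23 from 0.81 to 676 TPM and 13 at 0.53 TPM or less in the smaller. No member was called in any of the 4, where 0.452%, 0.0%, 0.00685% and 0.0% of genes were called by limma (0.219% positive and 0.233% negative in the first). At an unadjusted limma p under 0.05 there were 2351, 1611, 1528 and 565 genes in the 4 parts, or 16.09%, 11.03%, 10.46% and 3.87% of those tested. Members at that level numbered 3 in the first part and 0 in the others. Those 3 were Amd1 (r = 0.53, rho = 0.51, permutation p = 0.0059 and 0.0085), Odc1 (r = 0.38) and Smox (r = -0.47), whose limma adjusted p were 0.14, 0.30 and 0.20. Amd1 passed under 4 of 10 alternatives, 2 of them the rescalings, with adjusted p over all 10 from 0.011 to 0.9999.

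Members were then set against each other, over 28 pairs in each set. A pair was called when it passed with either of its genes as the term of the fit, the lenient of the possible rules, and the counts under the strict rule, with both genes as the term, follow each. In the larger set 24 pairs were called in TPM under either rule, all positive. Of all genes, 80.8% were called with Odc1 as the term, 37.3% with Srm, 78.5% with Amd1, 87.7% with Azin1, 77.1% with Oaz1, 88.8% with Oaz2, 72.5% with Smox and 73.2% with Paox, so a called pair in TPM says little about the members.

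Rescaling took most of those calls away. Under median-of-ratios scaling 7 positive and 2 negative pairs were called (6 and 1 under the strict rule), and the shares of all genes became 5.13% for Odc1, 63.1% for Srm, 10.7% for Amd1, 15.1% for Azin1, 62.9% for Oaz1, 47.4% for Oaz2, 48.5% for Smox and 10.1% for Paox. Without the 20 largest genes there were 6 and 2 (5 and 2), with shares of 5.74%, 51.2%, 17.4%, 36.6%, 54.1%, 26.6%, 37.7% and 13.7% in the same order. The pairs called with 1 sign on all 3 scales numbered 3, under either rule. They were Odc1 with Amd1, the decarboxylases, Oaz1 with Oaz2, the antizymes, and Oaz1 with Smox.

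Odc1 and Amd1 had r = 0.77 and rho = 0.76 in TPM (n = 79, permutation p = 1e-05 each, limma adjusted p = 3.4e-14) and r = 0.61 under median-of-ratios scaling (limma adjusted p = 6.1e-07, and 1.5e-06 with the other gene as the term). Oaz1 and Oaz2 had r = 0.80 and rho = 0.83 in TPM (permutation p = 1e-05 each), 0.60 under that scaling and 0.34 without the 20 largest genes. Oaz1 and Smox had r of 0.71, 0.54 and 0.39 on the 3 scales. Amd1 and Smox had r = 0.09 in TPM (limma adjusted p = 0.44), and were negative and called when rescaled, at r = -0.41 and -0.44 (adjusted p = 0.00068 and 0.00038).

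Of the 28 pairs of the smaller set, 12 were called in TPM, all positive, and 8 under the strict rule. Shares of all genes there were 8.71% with Odc1 as the term, 23.5% with Srm, 12.7% with Amd1, 1.38% with Azin1, 58.6% with Oaz1, 6.66% with Oaz2, 60.5% with Smox and 61.7% with Paox. Under median-of-ratios scaling 10 positive and 5 negative pairs were called (8 and 3 under the strict rule), beside shares of 16.8%, 12%, 0.0%, 30.7%, 43.8%, 20.2%, 58.4% and 61.7% in the same order. Without the 20 largest genes there were 9 and 5 (7 and 4), beside shares of 17.6%, 10.7%, 0.00534%, 33.9%, 37%, 21.8%, 57.1% and 52.6%.

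On all 3 scales 8 pairs were called and positive, and 4 of them under the strict rule. Those 4 were Odc1 with Srm (r = 0.58, rho = 0.59, n = 36, permutation p = 0.00029 and 0.00019), Srm with Oaz1 (r = 0.64, rho = 0.67), Srm with Oaz2 (r = 0.53, rho = 0.57) and the oxidases. Smox and Paox had r = 0.77 and rho = 0.73 in TPM (permutation p = 1e-05 each, limma adjusted p = 1.7e-07) and r = 0.71 under median-of-ratios scaling. The 5 libraries highest in Smox were kept in these values. Smox and Paox also went with the summed prostate luminal markers there (r = 0.74 and 0.85), and the part of those markers in the pair was not tested. Odc1 with Amd1 had r = 0.59 in TPM, and under that scaling r = 0.54 with a limma adjusted p of 0.011 with 1 gene as the term and 0.091 with the other.

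The negative pairs of the smaller set joined an oxidase with another member. Under median-of-ratios scaling they were Smox with Odc1 (r = -0.38), with Azin1 (-0.57) and with Oaz2 (-0.40), and Paox with Odc1 (-0.47) and with Azin1 (-0.40). In TPM the same pairs had r from -0.25 to -0.07 and none was called.

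**Figure D5:**
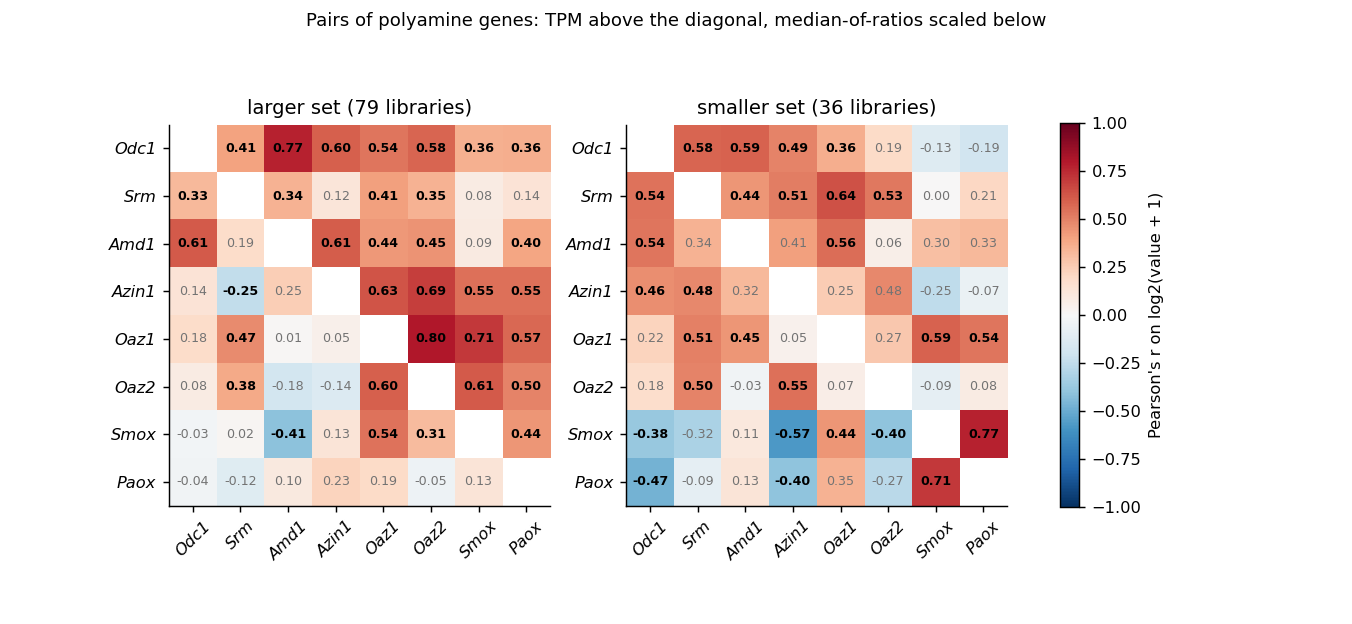
Pearson's r for the 28 pairs of polyamine genes in the larger (left) and smaller (right) set, on log2(value + 1), with TPM above the diagonal and median-of-ratios scaled values below; bold marks a limma adjusted p under 0.05. Above the diagonal on the left 24 pairs are bold and red, below it 9 are bold, and on the right Smox and Paox stand at 0.77 and 0.71.

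Of 24 further genes of polyamine supply, salvage, transport and use, 22 had a mean of at least 1 TPM and were tested, and Agmat and Oaz3 did not. Against Tgm4 in the larger set, 7 were called and positive and 5 negative, beside 12.2% and 26.5% of all genes. The positive count was above its share and the negative count near its own, with no test made of the list. The positive ones were Slc3a2 (r = 0.56, limma adjusted p = 1.3e-06), the heavy chain of amino acid exchangers, the polyamine transporters Atp13a3 (r = 0.42) and Atp13a2 (0.31), and the enzymes of ornithine metabolism Oat (0.38) and Aldh18a1 (0.38). Eif5a (r = 0.44), the factor that carries the spermidine-derived residue hypusine, and Dohh (0.38), which completes that residue, made up the 7. The negative ones were Mat2a (r = -0.44), which makes S-adenosylmethionine, with Adi1, Eif5a2, Azin2 and Arg1. The counts were 8 positive and 7 negative under median-of-ratios scaling, where 57.7% of all genes were called in either direction. They were 8 and 5 of 23 tested without the 20 largest genes, where 47.4% were. The shares by direction are not given for these scales, so the counts by direction cannot be weighed there.

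Against Mki67 in the larger set, 12 of the 22 were called and positive and 0 negative (72.9% and 1.42% of all genes). Under median-of-ratios scaling 2 were positive and 9 negative. There 43.7% of all genes were called in either direction, and the median slope of all genes moved from 0.18 to -0.01. Mtap (r = 0.75) and Apip (r = 0.67), which salvage methionine from the by-product of spermidine synthesis, were the 2 that stayed positive, with slopes of 0.19 ± 0.03 and 0.073 ± 0.026 (SE; limma adjusted p = 7.3e-07 and 0.019). The smaller set had 1 called and positive and 4 called and negative against Mki67 (23.3% and 21.6% of all genes), and 2 and 9 under median-of-ratios scaling (63.5% of all genes in either direction), and Arg2 (r = 0.52, limma adjusted p = 0.036) was the only 1 called against Tgm4.

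The genes whose pattern over the 79 libraries was most like each member are given as a description, by Spearman's rho on TPM. On that scale most genes were called with any member but Srm as the term. The ranking was not repeated under the rescalings, so a high rho here may not hold there. For Odc1 they were Tbc1d9b (0.83), Mpi (0.82) and Cdipt (0.81). For Amd1 they were Med22 (0.84), Snx16 (0.82) and Crybg1 (0.82), and for Srm Tmem214 (0.86), Eef1akmt3 (0.86) and Hid1 (0.85). The regulators had closer matches, Papss1 (0.90), Nbn (0.89) and Far1 (0.89) for Azin1, Msantd4 (0.93), Wsb2 (0.92) and Shc1 (0.92) for Oaz2, and Psmb6 (0.95), Park7 (0.93) and Pebp1 (0.92) for Oaz1. Smox was matched by Ran (0.84), Ube2s (0.83) and Calm2 (0.83). Paox was matched by Echs1 (0.76), Rras2 (0.75) and Lcmt1 (0.73), all on chromosome 7 as Paox is.

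Some of these values rest on sequence that genes share. Echs1 lies on the strand opposite to Paox and shares 142 of its 4907 exonic bases, and the library kit does not mark strand, so reads there cannot be told apart. The same holds for 358 bases of Azin1 shared with the antisense gene Gm49077, and for 830 of the 4555 exonic bases of Tgm4, shared with the coding gene Zdhhc3, and their part in the low Tgm4 values of the smaller set was not tested. Amd1 has a coding copy, Amd2, with 99.6% identity over 3202 bases and a median of 7.80 TPM, from 0.09 to 39.5, and the division of reads between them rests on the authors' counting. With the copies summed, the slope of Amd1 on Mki67 in the larger set was 0.24, as for Amd1 alone. Odc1 has 4 processed pseudogenes of at least 95% identity, none above 10.03 TPM in any library. Of the X-linked enzymes left out, Sms had a median of 0.33 TPM and Sat1 of 0.32. Only 14.4% of the 938 X-linked coding genes had a median of 1 TPM or more, against 55.3% of autosomal ones, so these levels were not read.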

How the data were processed

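RNA was sequenced from prostates of (TRAMP x WSB/EiJ) F2 mice after depletion of ribosomal RNA. Each library has its own title, and each was taken here as 1 mouse, which the labels do not state. The authors trimmed the reads with Trimmomatic, mapped them with Bowtie2 (2.2.5 per the submitters' notes) to a transcriptome of C57BL/6 and WSB alleles built with Seqnature on GRCm38, and estimated expression with RSEM 1.2.20. The deposited values are TPM, with no counts, so depth and counting error are unknown and no count model was used. The annotation behind the table is not given in the sources used here. GENCODE M21 named 98.8% of its identifiers. The RNA methods state fewer mice than the table holds libraries, and every library of the table was used.

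Values were taken as log2(TPM + 1). Libraries counted as separate where 2 normal distributions beat 1 by a BIC of over 10, with an Ashman D above 2 and 6 or more libraries a part. Genes averaging 1 TPM or more were fitted on Mki67, Tgm4, Sbp or a member with limma 3.58.1 (R 4.3.3) within each set, with Benjamini-Hochberg adjustment over all genes and a threshold of 0.05. A pair of members was called if either fit passed. Two-sided p for r (Pearson) and rho (Spearman) came from 100000 permutations, and r was repeated after the 2 libraries farthest from the comparator's median were dropped.

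Alternatives were a pseudocount of 0.1, rescaling by median of ratios or after removal of the 20 largest genes, no filter, ranks, leaving out the 2 farthest libraries, and covariates (seminal vesicle, stroma or immune markers, the first principal component). Chosen after seeing the data were the division of Tgm4, the sum of Amd1 and Amd2, the luminal and neuroendocrine covariates leaving out the 5 libraries highest in Smox, and calling a pair only if both fits passed. The members and all gene lists were chosen with earlier results of these data known. Named genes are the members, the comparators, the pathway list and, for each member, the 3 genes of highest rho.

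In simulated data for the larger set (14621 genes), limma recovered 67 of 100 genes seeded at r = 0.4 and 100 of 100 at r = 0.6, with 6 others called. For the smaller set (14611 genes) it recovered 10 and 51 of 100, with 1 other. The rule for separate parts was tested on simulated data too. Transcripts of other genes sharing 95% identity over 80% of the shorter one were found with BLAST+ 2.17.0. Other software was matplotlib 3.10.9, scipy 1.17.1, pandas 2.3.3 and numpy 2.4.6 under Python 3.11.15.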

Additional observations from a re-analysis of the deposited data

How the results depend on the processing

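No paired analysis was possible because there is 1 group and the replicate numbers only number libraries. Members called against Mki67 in the larger set numbered 7 of 8, beside 74.3% of all genes. They numbered 5 under median-of-ratios scaling (3 positive and 2 negative, 43.7% of all genes), and 4 without the 20 largest genes (37.4%). With immune markers as a covariate they numbered 6 (55.2%), and with the first principal component 2 (36.8%). In the smaller set 3 were called, all negative (44.9% of all genes). Without the 20 largest genes 6 were (3 positive and 3 negative, 60.7%). Without the 5 libraries highest in Smox 5 were, and the share of all genes is not given here. With stroma, immune or luminal markers or the first principal component 0 were, beside 29.6%, 28.2%, 29.4% and 37.9% of all genes. Against Tgm4 in the larger set 1 was called (38.8% of all genes). Under median-of-ratios scaling, without the 20 largest genes and with stroma markers 3 were (57.7%, 47.4% and 46.6%). Under ranks 3 were, with the share not given here. Without the 2 farthest libraries and with immune markers or the first principal component 4 were (62.7%, 39.7% and 55.1%). With luminal markers 2 were (29.2%), and in the 24 libraries low in Tgm4 0 were (0.507%). In the part of the larger set high in Sbp 0 were called (0.452% of all genes). There 1 was called under median-of-ratios scaling (1.43%) and with immune markers (2.43%). Without the 20 largest genes 2 were (1.98%), and with the first principal component 3 (4.95%). Pairs called in the larger set fell from 24 to 9, 8 and 11 under median-of-ratios scaling, without the 20 largest genes and with the first principal component. When a pair had to pass with both genes as the term, 24 stayed called in the larger set and 8 of 12 in the smaller.

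Called slopes on Mki67 that changed sign in the larger set were those of Odc1 (-0.0012 under median-of-ratios scaling and -0.0025 with the first principal component), Amd1 (-0.027 and -0.065) and Oaz2 (-0.083 and -0.092, and -0.021 without the 20 largest genes). In the smaller set they were those of Smox (0.057 with the first principal component and 0.038 with luminal markers) and Paox (0.011 and 0.18). The 5 members not called there had slopes of either sign over the alternatives. On Tgm4 in the larger set, Oaz2 was called with the opposite sign with immune markers (0.032) and the first principal component (0.035). The causes were not tested.

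The split into 79 and 36 libraries stood under the 5 alternatives tried, with 1 library changing sides under median-of-ratios scaling. Clear orders numbered 20 in the larger set alone and 17 in the smaller. TPM holds no depth, so low values such as those of Paox carry an unknown counting error. At 36 libraries the simulated recovery at r = 0.4 was low. Only 100 genes were seeded at each r, where 44.9% of all genes were called against Mki67. Adjustment over all genes depends on how many are related, so that recovery does not carry over to the fit on Mki67. Genes not called there may still be related.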
